A study of Mus musculus with 13 samples.

Results

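The prostaglandin synthesis and receptor genes were followed in squamous cell carcinomas of mouse skin that either kept G9a or had lost it. The group was set as 10 genes: the cyclooxygenases Ptgs1 and Ptgs2, the terminal synthases Ptges and Ptgis, the degrading enzyme Hpgd, the phospholipase Pla2g4a, and the receptor genes Ptger1, Ptger2, Ptger3 and Ptger4. Every probe set of the expression array was taken whose only gene symbol in the platform annotation is 1 of these names. This gave 15 probe sets for 9 of the 10 genes, out of 45141 probe sets and 17097 genes with a symbol of their own. No probe set listed Ptgs1 as its only symbol, so Ptgs1 was not analysed here. Where a gene has several probe sets they are numbered (Ptgs2 1, Ptgs2 2).

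G9a, encoded by Ehmt2, is a histone methyltransferase linked to gene silencing. Total RNA was read on 13 arrays, 6 from tumours of G9a WT mice (replicates 2, 4, 6, 7, 8 and 9) and 7 from tumours of G9a cKO mice (replicates 1, 2, 3, 5, 6, 8 and 9), where cKO stands for a conditional knockout. Both groups carried the same treatment: from 8 weeks of age the shaved back received 200 µl of the mutagen DMBA (0.25 mg per ml) and of the phorbol ester TPA (0.02 mg per ml), both in acetone, every week for 6 weeks, after which TPA alone went on for at most 20 weeks. The labels name neither the promoter behind the recombinase nor the sex or strain, and do not say whether replicates are separate animals, so p-values measure the spread between these tumours. Tumour-free skin was not analysed here.

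Prostaglandins are short-lived lipid signals made from arachidonic acid, which the cytosolic phospholipase Pla2g4a cuts out of membranes. Cyclooxygenase turns it into prostaglandin H2, a synthase such as Ptges turns that into prostaglandin E2, Hpgd inactivates the product, and 4 receptors named EP1 to EP4 read it on the cell surface. In skin, Ptgs2 is the inducible cyclooxygenase that TPA and wounding switch on, and prostaglandin E2 is a known growth signal in chemically induced mouse skin tumours.

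Values are log2 expression from robust multi-array averaging (RMA), so a step of 1 is a doubling. A probe set is called where limma's adjusted p is under 0.05 (Benjamini-Hochberg over 45037 probe sets). Arrays deposited next to each other within a group deviated in opposite directions from their group mean over these probe sets (r from -0.953 to -0.881 in 6 pairs), and the labels do not say what such a pair is. A second limma fit therefore carried a term for each pair. It gives the same difference as the first, with an error taken from the spread within pairs. Rose or fell is used of a member only where both fits called it. The second fit called 12169 probe sets and both fits called 12169, so the second decides and the first is no separate support. A level under 4.29, the upper quartile of the array's 23 nonspecific control probe sets, is described as below background.

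Facts of the whole series bear on these genes. Of the Ehmt2 probe sets, one stood at 8.33 ± 0.19 (SD, n = 6) over the WT tumours and fell to 6.01 ± 0.10 (SD, n = 7) over the cKO tumours (limma adjusted p = 1.3e-09), and the other was 7.29 ± 0.19 in WT and 7.42 ± 0.04 in cKO (limma adjusted p = 0.163), with their place relative to the deleted part not given. The 7 keratinocyte markers measured had a summed level of 14.32 to 14.49 in WT and 14.24 to 14.47 in cKO arrays, with all 7 above background. Both fits called 3 of these 7, Krt5 higher by 0.13 and Krt6a and Cdh1 lower, by -0.37 and -0.56. Markers of other cells differed too, against 14.4% of all genes called higher and 10.3% called lower by both fits: 5 of 8 endothelial genes rose, with a summed level of 7.34 to 8.70 in WT and 8.88 to 9.65 in cKO, and 4 of 8 fibroblast genes rose, with a summed level of 10.67 to 11.67 in WT and 11.29 to 12.05 in cKO. Of 6 smooth muscle and pericyte genes, Acta2, Pdgfrb and Myh11 rose by 1.44, 0.57 and 0.55 and Rgs5 fell by 1.43, with a summed level of 8.21 to 9.31 in WT and 9.14 to 10.06 in cKO. Both fits called 2 of 8 mast cell genes higher, Kit and Ms4a2, which were below background in both groups, as 5 of the 8 were. They called 2 of 7 T and B cell genes higher and none of 5 neutrophil genes. None of these genes was called lower by both fits. The part of these shifts in the values below was not tested, and in whole tumours fewer cells of a type cannot be told apart from less RNA per cell.

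In the cKO tumours Ptgs2 was lower on both of its probe sets and Ptger3 was higher on 1 of its 2, while the other 7 genes measured did not pass both fits. The fit without the pair term called 5 of the 15 probe sets, 1 higher and 4 lower, against 47.9% of all probe sets on the array, 24.4% higher and 23.4% lower. Both fits called 3 of the 15, which is 1 higher and 2 lower, against 27.0% of all probe sets, 13.9% higher and 13.1% lower. The groups did not overlap on 3 of the 15 probe sets, against 24.2% of all. The median difference over the 15 was -0.11, beside 0 over all probe sets. The totals called or not overlapping lie below the shares over the whole array by few probe sets, whereas the counts called lower do not. None of this was tested.

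**Figure D1:**
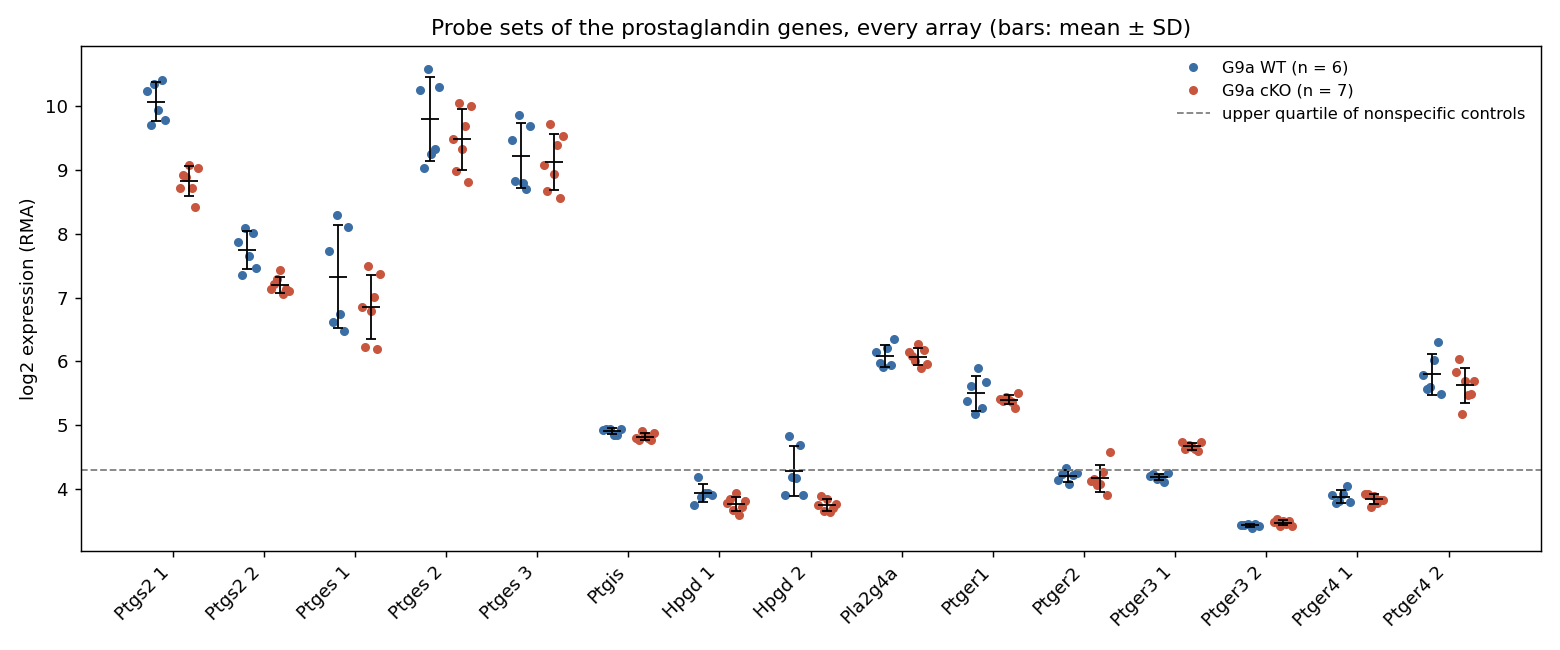
Log2 expression (RMA) of the 15 probe sets in every tumour, with blue points for 6 G9a WT arrays, red points for 7 G9a cKO arrays, bars for mean ± SD and a dashed line at the background level of 4.29. The WT and cKO points are apart for Ptgs2 1, Hpgd 2 and Ptger3 1, the points of Ptges 1, 2 and 3 are the most widely scattered within each group, and 5 probe sets have both group means below the line.

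Ptgs2, the inducible cyclooxygenase also called COX-2, had the largest difference among the 15 probe sets. On Ptgs2 1 the WT tumours read 10.24, 9.71, 10.36, 9.95, 10.42 and 9.78 in replicates 2, 4, 6, 7, 8 and 9. The cKO tumours read 8.72, 8.93, 8.90, 9.08, 8.72, 8.42 and 9.04 in replicates 1, 2, 3, 5, 6, 8 and 9. The groups did not overlap: the lowest WT tumour, replicate 4, stood above the highest cKO tumour, replicate 5. The mean fell from 10.08 ± 0.30 (SD, n = 6) to 8.83 ± 0.23 (SD, n = 7), a log2 difference of -1.25 (SE 0.14, 95% interval -1.55 to -0.95), or 2.37-fold lower. The limma adjusted p was 1.82e-05 without and 0.00288 with the pair term, and the exact permutation p was 0.000583, the smallest that 6 against 7 arrays can give. The permutation, here and below, took single arrays as exchangeable and left the pairs out of account. A call by both fits together with a change over 2-fold was met by 1.36% of all probe sets.

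Neighbouring tumours also differed in Ptgs2 within each group. In WT, replicates 2, 6 and 8 were the high members of their pairs and replicates 4, 7 and 9 the low ones, by 0.53, 0.41 and 0.64 on Ptgs2 1. The WT pair means were 9.98, 10.16 and 10.10, and the cKO pair means 8.91, 8.90 and 8.73, with cKO replicate 1, which had no partner, at 8.72. Since the pairs were set from arrays that deviate in opposite directions, the closeness of their means is no further support. With each array left out in turn the difference stayed between -1.32 and -1.18.

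Ptgs2 2, which was designed on the same transcript record as Ptgs2 1, moved the same way by a smaller step. It ran from 7.36 to 8.09 with a median of 7.76 in WT and from 7.05 to 7.44 with a median of 7.14 in cKO. The groups overlapped, because cKO replicate 5 at 7.44 stood above WT replicate 4. The mean fell from 7.74 ± 0.30 (SD, n = 6) to 7.20 ± 0.13 (SD, n = 7), a difference of -0.54 (SE 0.12, 95% interval -0.79 to -0.29) or 1.46-fold. The limma adjusted p was 0.00213 without and 0.0252 with the pair term, and 0.0662 when the values were also quantile normalized, where the difference was -0.42. Whether the steps on the Ptgs2 probe sets differ from each other was not tested. Averaged over both probe sets, the log2 difference of Ptgs2 was -0.89.

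**Figure D2:**
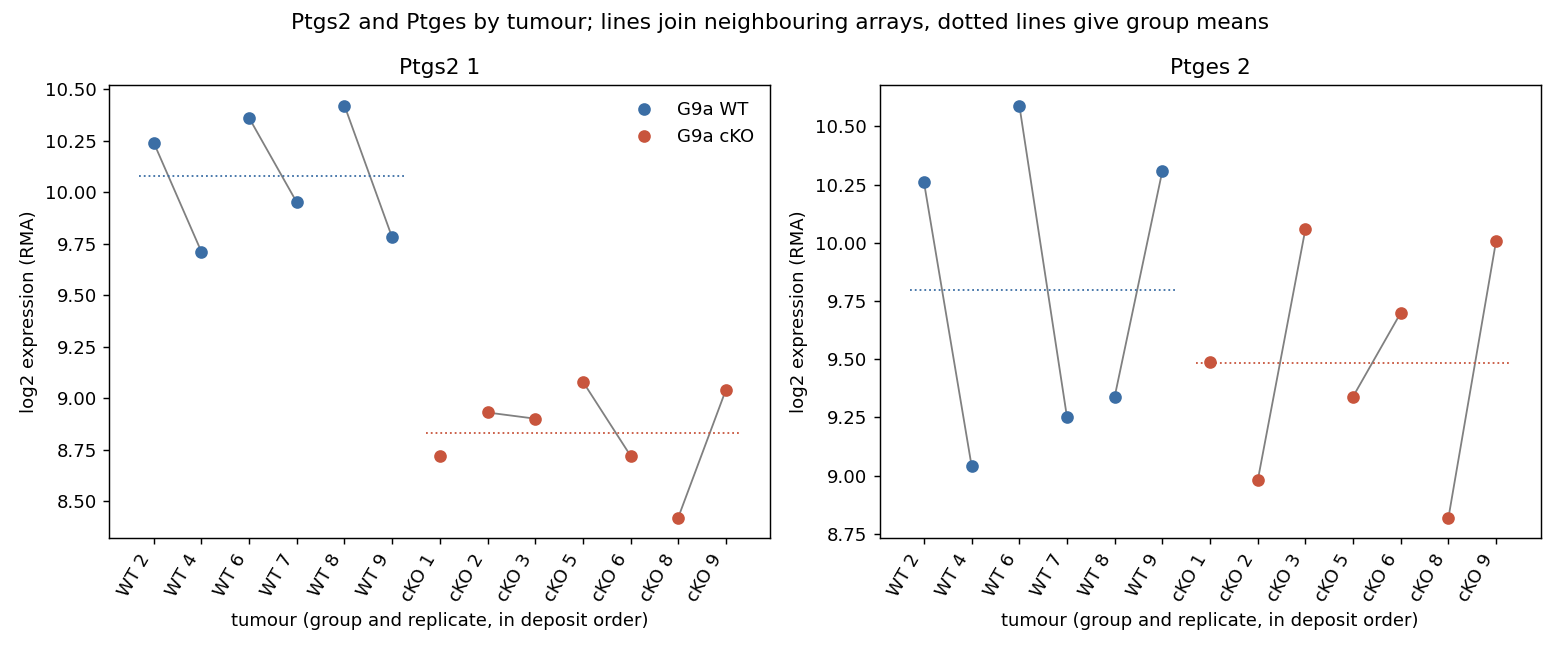
Log2 expression (RMA) of Ptgs2 1 (left) and Ptges 2 (right) in each tumour in the order of the deposit, blue for G9a WT and red for G9a cKO, with grey lines joining neighbouring arrays and dotted lines at the group means. On Ptgs2 1 every WT tumour lies above every cKO tumour, whereas on Ptges 2 the tumours of each group span more than the distance of 0.31 between the group means.

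Ptgs2 lies next to Pla2g4a on mouse chromosome 1 in the order of protein-coding genes, so the gene for the enzyme that releases arachidonic acid and the gene for the enzyme that uses it are neighbours. Their log2 differences were -1.25 for Ptgs2 1 and -0.02 for Pla2g4a, and Pdc, the neighbour of Ptgs2 on its other side, was at 0.02 (limma adjusted p = 0.513). The 250 bases before the start of Ptgs2 and before the first of the Pla2g4a starts in the table (it lists 2) are shown because this pair of neighbours gave such different values. They come from RefSeq (GRCm38.p6), run 5′ to 3′ on the gene's strand, and carry capitals only where a motif other than the loose E-box CANNTG was found.
Ptgs2, chr1:150099781-150100030, plus strand: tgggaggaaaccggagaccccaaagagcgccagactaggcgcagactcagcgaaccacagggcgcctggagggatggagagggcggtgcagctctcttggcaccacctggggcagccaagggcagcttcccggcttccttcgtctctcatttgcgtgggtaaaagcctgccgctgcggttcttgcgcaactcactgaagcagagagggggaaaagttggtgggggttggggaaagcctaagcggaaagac
Pla2g4a, chr1:149961291-149961540, minus strand: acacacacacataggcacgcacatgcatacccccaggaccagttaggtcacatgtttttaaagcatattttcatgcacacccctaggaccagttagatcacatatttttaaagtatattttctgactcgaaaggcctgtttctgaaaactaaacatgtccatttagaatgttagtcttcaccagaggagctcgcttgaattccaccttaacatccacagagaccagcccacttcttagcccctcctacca

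The Ptgs2 window holds 61.6% G or C and 13 CpG steps, and the Pla2g4a window 43.2% and 3. Both strands were searched for TATAAA, for the full cAMP response element (the binding site of CREB proteins) and its short form TGACG, for the AP-1 site TGANTCA, for the E-boxes CACGTG and CANNTG, and for the NF-kB consensus. In the 250 bases before the start neither of the windows shown held any of these but CANNTG, with 2 matches each, and 66.2% of all 32851 RefSeq windows of that length hold a CANNTG. For Ptgs2 the 30 bases from the RefSeq start onward, chr1:150100031-150100060 on the plus strand, are also shown. There the short cAMP element on the reverse strand (first base at position 14) runs into the E-box CACGTG (first base at position 17), both in capitals. Positions and windows count from that RefSeq start. Where transcription starts in these tumours was not measured, so these bases may lie before the transcript or within it.
Ptgs2 start: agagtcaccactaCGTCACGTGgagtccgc
Over windows extended to 50 bases past the start, 20.8% of all hold TGACG and 7.15% hold CACGTG. Of the 8 members with a window (9 windows in all, Ptgs1 among them), Ptgs2 alone held TGACG or CACGTG, and no window held TGANTCA, the full cAMP element or the NF-kB consensus. TATAAA was found in the other Pla2g4a window, 200 bases before the start on the reverse strand, and in Hpgd at position 5 after the start, and 13.6% of all extended windows hold it. A match in these letters is a description and not a measured binding site.

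Pla2g4a, the phospholipase that starts the chain, was at nearly the same level in both groups. It ran from 5.91 to 6.35 with a median of 6.06 in WT and from 5.89 to 6.27 with a median of 6.08 in cKO. The groups overlapped throughout, and the highest and the lowest of the 13 values were WT replicate 9 and cKO replicate 6. The means were 6.09 ± 0.17 (SD, n = 6) and 6.07 ± 0.13 (SD, n = 7), with a log2 difference of -0.02 (95% interval -0.19 to 0.16, limma adjusted p = 0.871). The interval leaves room for no step as large as that of either Ptgs2 probe set.

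Ptges, the inducible synthase that makes prostaglandin E2 from the cyclooxygenase product, varied among tumours of the same group more than any other member. On Ptges 2 the WT tumours read 10.26, 9.04, 10.59, 9.25, 9.34 and 10.31 in replicates 2, 4, 6, 7, 8 and 9. The cKO tumours read 9.49, 8.98, 10.06, 9.34, 9.70, 8.82 and 10.01 in replicates 1, 2, 3, 5, 6, 8 and 9. In WT, replicates 2, 6 and 9 were high and 4, 7 and 8 low, and the groups overlapped over most of their range. All 3 Ptges probe sets showed that split in WT, and on all 3 the highest cKO tumours were replicates 3, 9 and 6.

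No Ptges probe set was called. The means were 9.80 ± 0.66 (SD, n = 6) and 9.49 ± 0.48 (SD, n = 7) on Ptges 2, a difference of -0.31 (95% interval -0.95 to 0.33, limma adjusted p = 0.405). Ptges 1 went from 7.33 ± 0.81 to 6.85 ± 0.50, a difference of -0.48 (95% interval -1.22 to 0.26, limma adjusted p = 0.27). Ptges 3 went from 9.23 ± 0.51 to 9.13 ± 0.44, a difference of -0.10 (95% interval -0.63 to 0.43, limma adjusted p = 0.768). These intervals are wide because of the spread: the SD over WT tumours stood at the 99.3, 98.6 and 96.7 percentile of the SD of all probe sets for Ptges 1, 2 and 3, and over cKO tumours at the 97.4, 97.1 and 96.5 percentile. Single tumours moved the differences: with each array left out in turn Ptges 1 ran from -0.64 (without WT replicate 8) to -0.28 (without WT replicate 6), and Ptges 2 from -0.46 (without WT replicate 4) to -0.15 (without WT replicate 6).

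The spread of Ptges lay within the neighbouring pairs. On Ptges 2 the 2 arrays of a pair differed by 1.23, 1.34 and 0.97 in WT and by 1.08, 0.36 and 1.19 in cKO. The pair means differed little, at 9.65, 9.92 and 9.82 in WT and 9.52, 9.52 and 9.41 in cKO, with the lone cKO replicate 1 at 9.49. Since the pairs were set from arrays that deviate in opposite directions, this closeness and the spread within pairs are no further result. On this probe set every WT pair mean was above every cKO pair mean, which restates the group difference that was not called. On Ptges 3 it was not so: the WT pair of replicates 2 and 4, at 9.15, was below the cKO pairs at 9.20 and 9.16. The order of the pair means was not tested. The tumours high in Ptges were not always those high in Ptgs2: in WT, replicate 8 was the highest of its group on Ptgs2 1 and replicate 9 among the lowest, and on Ptges 2 their order was turned.

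Ptgis, which makes prostacyclin in vessels and stroma, stood above background and differed by a small step. It ran from 4.84 to 4.94 with a median of 4.92 in WT and from 4.76 to 4.91 with a median of 4.80 in cKO. The groups overlapped, with cKO replicates 3 and 9, at 4.91 and 4.87, among the WT values. The difference was -0.08 (SE 0.03, 95% interval -0.15 to -0.02), with a limma adjusted p of 0.0409 without and 0.189 with the pair term. The call was kept in 4 of 13 fits that each left out an array. Of 8 markers of endothelial cells, which are known to make prostacyclin, 5 rose by both fits in the same cKO tumours, Tek and Kdr differed by 0.03 and 0.04, and their part in the Ptgis value was not tested.

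Hpgd, the dehydrogenase that inactivates prostaglandin E2, was read by probe sets near or below background. On Hpgd 2 the WT tumours read 3.90, 4.82, 4.19, 4.17, 4.68 and 3.90 in replicates 2, 4, 6, 7, 8 and 9, and the cKO tumours ran from 3.64 to 3.89 with a median of 3.74. WT replicates 4 and 8 were the only arrays above background, and the groups did not overlap. The means were 4.28 ± 0.39 (SD, n = 6) and 3.75 ± 0.09 (SD, n = 7), a difference of -0.53 (SE 0.14) with a limma adjusted p of 0.008 without and 0.0619 with the pair term, and an exact permutation p of 0.000583. As both means are below background no fold is given, and the nonspecific controls themselves differed between the groups by -0.307 to 0.082. Hpgd 1 was below background on all 13 arrays, at 3.93 ± 0.14 in WT and 3.76 ± 0.12 in cKO (difference -0.17, limma adjusted p = 0.0659).

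**Figure D3:**
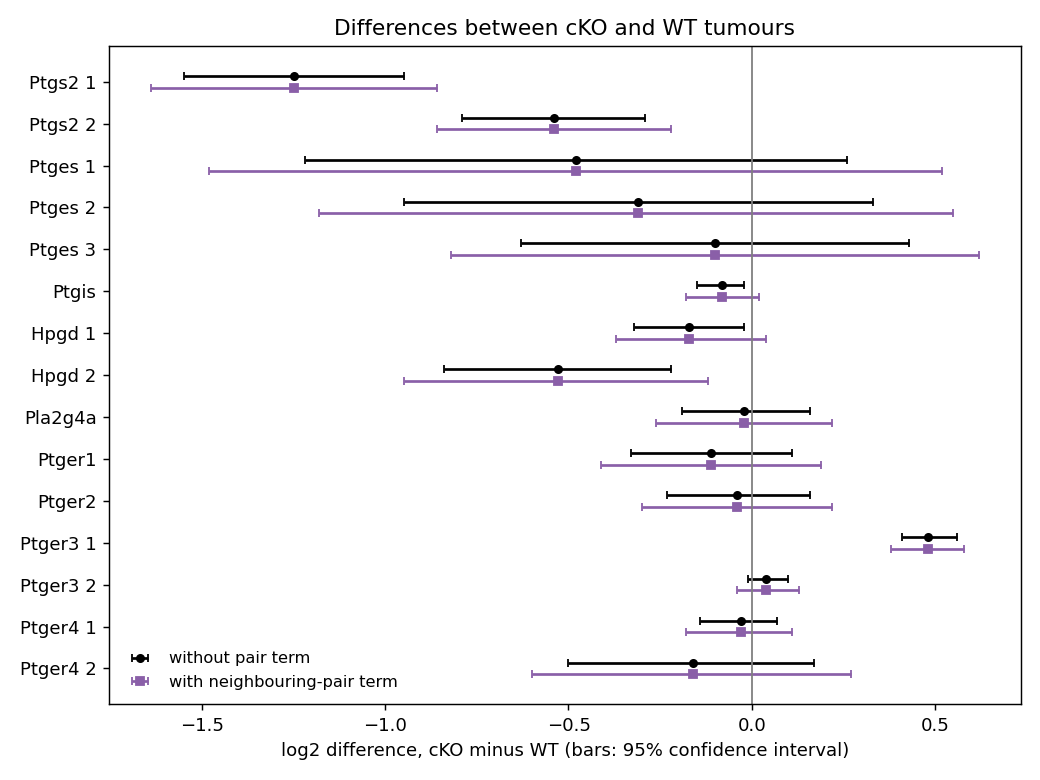
Log2 difference, cKO minus WT, of the 15 probe sets with 95% confidence intervals, black circles without and purple squares with the neighbouring-pair term. The intervals of Ptgs2 1, Ptgs2 2, Hpgd 2 and Ptger3 1 leave out 0 in both, those of Ptgis and Hpgd 1 in the first only, and those of Ptges 1, 2 and 3 are the widest.

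Among the receptors, Ptger3 1 was higher in cKO tumours and no probe set of Ptger1, Ptger2 or Ptger4 was called. Ptger3 encodes EP3, a receptor that mostly lowers cyclic AMP (cAMP). Ptger3 1 ran from 4.10 to 4.24 with a median of 4.19 in WT and from 4.60 to 4.74 with a median of 4.66 in cKO. All 7 cKO tumours stood above all 6 WT tumours, and the tumours of each group were close together. The mean rose from 4.18 ± 0.05 (SD, n = 6) to 4.67 ± 0.06 (SD, n = 7), a log2 difference of 0.48 (SE 0.03, 95% interval 0.41 to 0.56). The limma adjusted p was 5.25e-07 without and 0.000754 with the pair term, and the exact permutation p was 0.000583, the smallest possible.

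The level of Ptger3 1 limits what that step can be compared with. All 6 WT arrays were below background and none of the 7 cKO arrays was. The cKO mean over the background level gives 1.3-fold. That is no firm lower bound, as single nonspecific controls stood above the cKO mean, up to 6.17. The array's 18 hybridisation control probe sets, whose targets are added in fixed amounts, were all higher in cKO too, by 0.0573 to 0.493, a range that holds 0.48. The part of that shift in the Ptger3 value was not tested. Ptger3 2 was below background on all 13 arrays, at 3.42 ± 0.02 in WT and 3.47 ± 0.04 in cKO (difference 0.04, limma adjusted p = 0.161). The mean of both Ptger3 probe sets differed by 0.26.

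Ptger1 encodes EP1, a receptor that raises calcium. It ran from 5.18 to 5.90 with a median of 5.49 in WT and from 5.27 to 5.50 with a median of 5.40 in cKO. The cKO tumours lay inside the WT range, with WT replicates 7 and 9 highest and 6 and 8 lowest. The means were 5.50 ± 0.27 (SD, n = 6) and 5.39 ± 0.07 (SD, n = 7), a difference of -0.11 (95% interval -0.33 to 0.11, limma adjusted p = 0.394).

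Ptger2 and Ptger4 encode EP2 and EP4, the receptors that raise cAMP. Ptger4 2 ran from 5.48 to 6.31 with a median of 5.69 in WT and from 5.17 to 6.03 with a median of 5.69 in cKO. The group medians were equal and the ranges overlapped, with WT replicate 8 highest and cKO replicate 3 lowest. The difference of the means, 5.79 ± 0.32 (SD, n = 6) and 5.63 ± 0.28 (SD, n = 7), was -0.16 (95% interval -0.50 to 0.17, limma adjusted p = 0.40). Ptger4 1 was below background on all 13 arrays (difference -0.03). Ptger2 was below background on 5 of 6 WT and 6 of 7 cKO arrays, at 4.20 ± 0.09 and 4.17 ± 0.22, where cKO replicate 9 at 4.58 was the highest and cKO replicate 8 at 3.90 the lowest (difference -0.04, limma adjusted p = 0.75).

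The rest of the prostanoid pathway was read from a list of 19 other genes, of which 17 had a probe set, each gene by its probe set of highest mean. The first fit called 3 higher and 5 lower, against 25.7% and 20.1% of all genes (45.8% in all), and both fits called 2 higher and 1 lower, against 14.4% and 10.3% (24.7% in all). Ptgdr, a receptor for prostaglandin D2, rose from 5.47 ± 0.14 to 6.17 ± 0.10 (difference 0.70, limma adjusted p = 6.34e-06). Tbxas1, the thromboxane synthase, rose by 0.20 from 5.48 ± 0.02, and Ptges3, a cochaperone with prostaglandin E synthase activity, fell by 0.15 from 11.00 ± 0.05. The median difference of the 17 genes was -0.13, beside 0.02 over all genes, and -0.03 after quantile normalization. Probe sets of Ptgds, Ptgfr and Ptgr2 differed in opposite directions: the brighter Ptgds probe set differed by -0.16 and the other by 0.42, so these genes are uncertain.

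The genes that release or bind up arachidonic acid held the largest step in the pathway. Of 16 measured, the first fit called 5 higher and 4 lower, and both fits 3 higher and 1 lower, against 14.4% and 10.3% of all genes, with a median of 0.04. Pla2g4f, a cytosolic phospholipase related to Pla2g4a, rose from 4.79 ± 0.24 to 6.83 ± 0.22 (difference 2.04, limma adjusted p = 1.65e-07), and the groups did not overlap. Faah, which breaks down the arachidonic acid derivative anandamide, rose by 1.19 from 6.14 ± 0.13, and the phospholipase Pla2g6 rose by 0.31. Anxa1, an inhibitor of phospholipase activity, fell by 0.56 from 11.36 ± 0.10 to 10.80 ± 0.10.

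The lipoxygenase branch uses the same arachidonic acid. Of 12 measured genes the first fit called 6 higher and 1 lower, and both fits 3 higher and 1 lower, against 14.4% and 10.3% of all genes, with a median of 0.11. The epidermal lipoxygenase Alox8 rose from 5.37 ± 0.21 to 6.20 ± 0.17 (difference 0.83, limma adjusted p = 3.7e-05). Alox5 and Alox5ap start leukotriene synthesis in blood-derived cells. Alox5 was called higher by 0.16 from 4.39, a level little above the background of 4.29. Single nonspecific controls differed between the groups by -0.307 to 0.082, so the size of the Alox5 step is uncertain. Alox5ap was called higher at 4.47 in cKO against 4.21 in WT, a mean below background, so no size is given for its step. Alox12b, a lipoxygenase of the skin barrier, fell by 0.72 from 6.58 ± 0.37. In the same tumours 2 of 8 macrophage genes rose by both fits, against 14.4% of all genes. Of these 2, Adgre1 was below background in both groups, at 3.93 in WT and 4.28 in cKO. The first fit called 3 macrophage genes higher and 1 lower (Cd14, -0.42). The summed level was 7.82 to 8.06 in WT and 7.97 to 8.47 in cKO, and the part of macrophages in the Alox5 and Alox5ap values was not tested.

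Of 12 measured genes that respond to cAMP, the second messenger of EP2 and EP4, the first limma fit called 1 higher and 3 lower, and both fits none higher and 2 lower, against 14.4% and 10.3% of all genes. The median was 0.13, and at an unadjusted limma p under 0.05 there were 2 higher genes, Pde10a and Sik1. Pde4d, a cAMP phosphodiesterase, fell by 0.24 from 5.29 ± 0.09. Crem, a cAMP-responsive transcription factor, was called lower on its brighter probe set, at 4.49 in WT and 4.17 in cKO, the latter below background. The other Crem probe set was called higher with both means below background, so Crem is uncertain. Per1 differed by -0.29 and Pde10a by 0.20, called without the pair term only, and another Pde10a probe set differed by -0.11 (limma adjusted p = 0.00242). The brightest probe sets of Nr4a1, Nr4a2 and Nr4a3, genes which cAMP induces rapidly, differed by 0.17, 0.18 and 0.32 and were not called. A dimmer Nr4a2 probe set was called by both fits, at 5.53 in WT and 5.98 in cKO (difference 0.45, limma adjusted p = 1.36e-05).

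**Figure D4:**
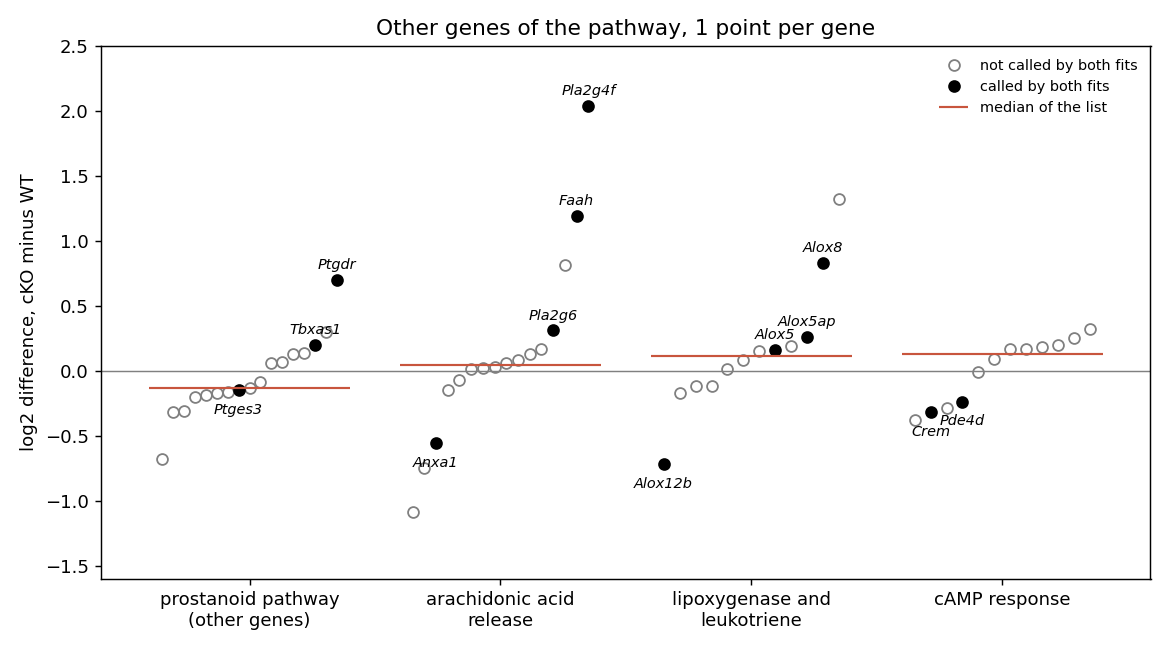
Log2 difference, cKO minus WT, of the other pathway genes in 4 lists, 1 point per gene in ascending order, filled where both limma fits called the gene and open where not, with a red line at the median of each list. Pla2g4f at 2.04 is the highest point, and the medians of the 4 lists lie between -0.13 and 0.13.

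The genes whose values most resembled Ptgs2 1 over the 13 arrays were Hccs, Slc7a8, Flrt2, Papolg and Fnip1. Likeness was the mean absolute difference of log2 values, each centred on its own mean, and it was 0.12, 0.127, 0.14, 0.142 and 0.15 for these 5, beside a mean deviation of 0.62 for Ptgs2 1 itself. The nearest, Hccs, was 8.33 in WT and 7.15 in cKO. All 5 differed between the groups by -1.37 to -1.08, beside -1.25 for Ptgs2 1. The centring keeps the group difference, so genes with a similar group difference come out as alike. Likeness among the tumours within a group was not tested. For Ptges 1, the probe set with the largest SD after Ptgs2 1, the nearest genes were Bcat1, Fgfbp1, Pdgfb, Plin2 and Stac, at 0.209, 0.234, 0.236, 0.25 and 0.253, beside a mean deviation of 0.56. The match for Ptges is looser, and Bcat1 itself differed by -0.26 between the groups.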

How the data were processed

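Total RNA of 13 tumours (6 G9a WT, 7 G9a cKO) was amplified, labelled with biotin and hybridised to an expression array. The deposited values are log2 expression made by RMA, a method named in the submitters' processing notes, which give no version. Values were used as deposited. Array medians ran from 5.09 to 5.14. Arrays give no read depth, so their number limits the precision.

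Genes came from the platform annotation, where 28898 probe sets have 1 symbol. The 104 control probe sets were left out of the test. The other 45037 were fitted with limma 3.58.1 (lmFit and eBayes, R 4.3.3), cKO against WT, two-sided, no covariate, Benjamini-Hochberg adjustment, threshold 0.05. The second fit added a fixed term per neighbouring pair of arrays. Within a group the order of the deposit gave the pairs; with 7 cKO arrays, the array left alone (replicate 1) was the one that made the paired deviations most opposed. Single values were also tested by an exact permutation over 1716 divisions of the arrays, which took single arrays as exchangeable and ignored the pairs. Both fits were first run on simulated data with independent noise in each array. These lack the opposed pairs of the real arrays, so the run cannot show the error rate under that pairing.

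All probe sets of the members are described. Of each other list, the genes called by both fits, at most 4 by smallest p, are named; Pde10a, Sik1, Per1, Ptgds, Ptgfr, Ptgr2, the Nr4a genes and single marker genes were named after their values were seen, as was the search past the start site. The members and lists were chosen with earlier results of these data known. The alternatives were another normalization, the pair term, a replicate block, a filter on dim probe sets, gene-level values, array weights, another prior, a stricter threshold and each array left out.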

Additional observations from a re-analysis of the deposited data

How the results depend on the processing

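Ptgs2 1 and Ptger3 1 kept their direction and stayed called under every alternative run. Ptgs2 1 ranged from -1.42 to -0.89 and Ptger3 1 from 0.26 to 0.54. Ptgs2 2 lost its call only with quantile normalization and the pair term together (-0.42, adjusted p = 0.0662). Hpgd 2 lost its call with the pair term, with both of these together and with the replicate block, and was left out with the dim probe sets. Ptgis lost its call with each of these terms, with dim probe sets left out (adjusted p = 0.0671) and with a trended robust prior (adjusted p = 0.0541), at values of -0.11 to -0.08. Hpgd 1 was called after median centring (-0.18, adjusted p = 0.0388) and quantile normalization (-0.19, adjusted p = 0.0405). The member probe sets called lower were 4 in the main fit. They were 5 with median centring and with quantile normalization, and 3 with the trended robust prior and with the stricter threshold. With each array left out they were 3 or 4. They were 2 with the pair term, 1 with quantile normalization and the pair term, and 2 with dim probe sets left out. Over all probe sets, 24.4% higher and 23.4% lower became 13.9% and 13.1% with the pair term, 13.6% and 11.5% with quantile normalization and the pair term, and 9.42% and 10.5% with the replicate block. Values that turned their sign were never called: Ptges 3 was 0.07 and Pla2g4a 0.01 under quantile normalization with and without the pair term, Ptger1 was 0 with the replicate block, and with array weights Pla2g4a was 0.04, Ptger4 1 was 0.04 and Ptger4 2 was 0.03. With each array left out, Ptges 3 ran from -0.20 to 0.03, Pla2g4a from -0.05 to 0.03, Ptger4 1 from -0.05 to 0 and Ptger2 from -0.11 to 0.01. The cause of these moves was not tested. Replicate numbers 2, 6, 8 and 9 occur in both groups, but same-numbered tumours did not deviate together (r of 0.0536, -0.283, -0.128 and -0.0563), so the numbers were not taken as pairs. The replicate block draws its difference from replicates 2, 6, 8 and 9 alone, as every other number occurs in a single group. On those arrays Ptges 1 was -0.95 (adjusted p = 0.0467) and Ptges 2 was -0.75 (adjusted p = 0.0481). Adjusted p-values here are limma's with Benjamini-Hochberg adjustment. Signal over background limits 5 member probe sets, those with both group means below background.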

Other observations

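The genes next to the members on their chromosomes gave further values, read by the probe set of highest mean. Ptgdr, which rose by 0.70 in cKO tumours, is the neighbour of Ptger2 on chromosome 14, whereas Ptger2 itself differed by -0.04. Ddx39a, an RNA helicase gene next to Ptger1 on chromosome 8, fell by 0.68 (limma adjusted p = 2.16e-05 without and 0.00344 with the pair term), beside -0.11 for Ptger1. Cth, the cystathionine gamma-lyase gene next to Ptger3 on chromosome 3, fell by 0.61 (limma adjusted p = 0.000842 and 0.0191), where Ptger3 1 rose. The neighbours of Ptges, Prrx2 and Tor1b, differed by 0.10 and 0 and were not called, and those of Ptger4, Ttc33 and Dab2, differed by -0.34 and 0.37 and were not called. Next to Hpgd, Glra3 and Cep44 differed by 0.10 and 0.40, each called without the pair term only.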
